A study of Arabidopsis thaliana with 4 samples.

Results

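The genes described here encode the chlorophyll-binding antenna proteins and the nuclear-encoded subunits of both photosystems in Arabidopsis. They number 45 of the 37336 genes in the deposited table, with 21 light-harvesting genes (*LHCA* and *LHCB*), 13 genes of photosystem I (*PSA*) and 11 genes of photosystem II (*PSB*). Counted with photosystem I is *PSAP*, a thylakoid protein gene that the annotation also names *CURT1B*. The members were chosen by gene identity, as a family, after the contrast of *s2lb-2* with wild type in these same libraries had been seen. Their differences between genotypes are therefore a description, and where the genes past a threshold are counted, the same share of all genes stands beside the count and nothing is read from it.

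RNA was sequenced from whole 6-day-old seedlings, with 2 libraries of *s2lb-2* and 2 libraries of wild-type (WT) Col-*0*. *S2Lb* encodes a protein related to the Swd2 subunit of COMPASS, the complex that trimethylates lysine 4 of histone H3, and the study asked which transcripts depend on it. The *s2lb-2* line carries an insertion in *S2Lb* (RATM54-3645-1), moved from the Nossen accession into Col-*0* by backcrossing. Seedlings of both genotypes grew on agar medium without sugar, with 16 h of light (100 µmol per m2 and s, 23 °C) and 8 h of dark (19 °C). About 12 seedlings were pooled per sample, and replicates of a genotype came from different seed batches. Both genotypes were harvested at 1 time of day, 8 h after the start of the light. A genotype label of the mutant samples reads as a myc-tagged SDG2 line instead, and the titles and methods were followed. In *s2lb-2*, *S2Lb* had 80.8 and 67.2 normalized counts, against 1337 and 1613 in WT (log2 fold change -4.30, standard error (SE) 0.17, adjusted p = 0.0062 by limma), so that the libraries match the titles.

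Light-harvesting proteins bind most of the chlorophyll of the thylakoid membrane and pass excitation energy to the reaction centres. LHCA proteins surround photosystem I, whereas LHCB1, LHCB2 and LHCB3 form the trimers of the main antenna of photosystem II and LHCB4, LHCB5 and LHCB6 link these trimers to its core. The reaction centre proteins themselves are encoded in the plastid. The nuclear subunits serve as docking sites for electron carriers, as stabilizers of the oxygen-evolving complex, and as contact sites for the antenna.

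The libraries held 38510743 and 34325097 reads on genes for *s2lb-2*, and 35147859 and 39114300 for WT. A normalized count is the number of reads divided by the size factor of its library. Although the library kit marks strand, the counts behaved as if it had been ignored. All 337 protein-coding genes whose exons are wholly covered by exons of the other strand had 0 reads, as did 13.8% of the 19899 genes without overlap. To compare levels between genes, reads were divided by exon length (TPM, a transcript's share of all transcripts). The share of 50-base exon windows that occur once in the genome and touch no other gene's exon is called the countable share below.

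Photosystem genes took 13.8% and 12.5% of all reads in *s2lb-2*, against 15.8% and 15.3% in WT. The light-harvesting genes alone took 8.63% and 7.84% in *s2lb-2*, against 10.2% and 9.80% in WT. The genes of photosystem I took 2.00% and 1.81% in *s2lb-2*, against 2.40% and 2.38% in WT, whereas those of photosystem II took 3.13% and 2.85% in *s2lb-2*, against 3.22% and 3.13% in WT. For the whole set, the antenna and photosystem I the genotypes did not overlap, either in these shares or in summed normalized counts. For photosystem II the shares differed by a narrow margin, and the summed normalized counts overlapped (1186470 and 1011830 in *s2lb-2*, against 1186750 and 1137320 in WT). In whole seedlings, fewer green cells and less of these RNAs per cell cannot be told apart.

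In WT, 40 of the 100 genes with the highest TPM were photosystem genes. *LHCB1.3* had the highest level with 23164 and 21872 TPM, followed by *LHCB1.2* with 11709 and 10792 TPM, *LHCB3* with 10166 and 10344 TPM, *LHCA1* with 10053 and 9536 TPM, and *LHCA4* with 9411 and 9743 TPM. *LHCB1.1* came next with 9565 and 9296 TPM. In TPM, the values of neighbours in this order overlapped from *LHCA1* to *LHCB1.1*, whereas the genes above them were separate in both libraries. TPM divides by all exon bases, so that a low countable share lowers it. In normalized counts per kilobase of countable windows, *LHCB1.3* stayed highest (762753 and 707193 in WT). *LHCB3* (324249 and 323959) then lay above *LHCB1.2* (318665 and 288406). Likewise *LHCB1.1* (291655 and 278318) lay above *LHCA1* (265331 and 247125). The median WT level was 5288 TPM for the light-harvesting genes, 3164 TPM for photosystem II and 2323 TPM for photosystem I. Genes of photosystem II lay at 1883 to 7280 TPM, and those of photosystem I at 1021 to 6225 TPM. Part of photosystem I had low countable shares, such as 34.5% for *PSAG* and 35.6% for *PSAH1*. Per kilobase of countable windows, WT values in photosystem II reached from 49811 and 47903 (*PSBS*) to 252352 and 239447 (*PSBR*). In photosystem I they reached from 39280 and 37091 (*PSAE2*) to 162153 and 153019 (*PSAL*). Which photosystem had the more even levels or the higher median thus depended on the measure. The light-harvesting genes spanned 18.0 to 22518 TPM, because *LHCB7*, *LHCB4.3*, *LHCA6* and *LHCA5* stood far below the rest. These 4 genes, which encode minor or rare antenna proteins, had WT means of 18.0, 64.9, 224.9 and 289 TPM.

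Of the 45 genes, 44 had a mean normalized count of at least 1 and entered the fits. Of these, 37 were lower in *s2lb-2* than in WT by their mean log2 value, as were 11929 of all 23723 tested genes. Both *s2lb-2* libraries lay below both WT libraries for 24 of the 44 genes, where 24.7% of all tested genes did. Both lay above for 3 genes, *LHCB7*, *LHCA5* and *PSBS*, where 24.8% of all tested genes did. The median log2 fold change was -0.19 over the 44 genes and -0.0022 over all 23723 tested genes. At the threshold of the study (adjusted p under 0.01), limma called 0 of the 44 genes (0.122% of all tested genes), and the quasi-likelihood test of edgeR on the recovered reads also called 0. By limma 1 gene, *LHCB1.4*, was lower at an adjusted p under 0.05 (0.923% of all tested genes). At an unadjusted p under 0.05 by limma, 15 genes passed in either direction (17.4% of all tested genes). Of these, 14 were lower (8.9% of all tested genes were lower) and the remaining 1 was higher. DESeq2 on the recovered reads called 6 lower, *LHCB1.4*, *LHCB1.2*, *LHCA2*, *PSAN*, *PSAO* and *PSBW* (1.79% of all tested genes), and 0 higher (1.33% of all tested genes).

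**Figure D1:**
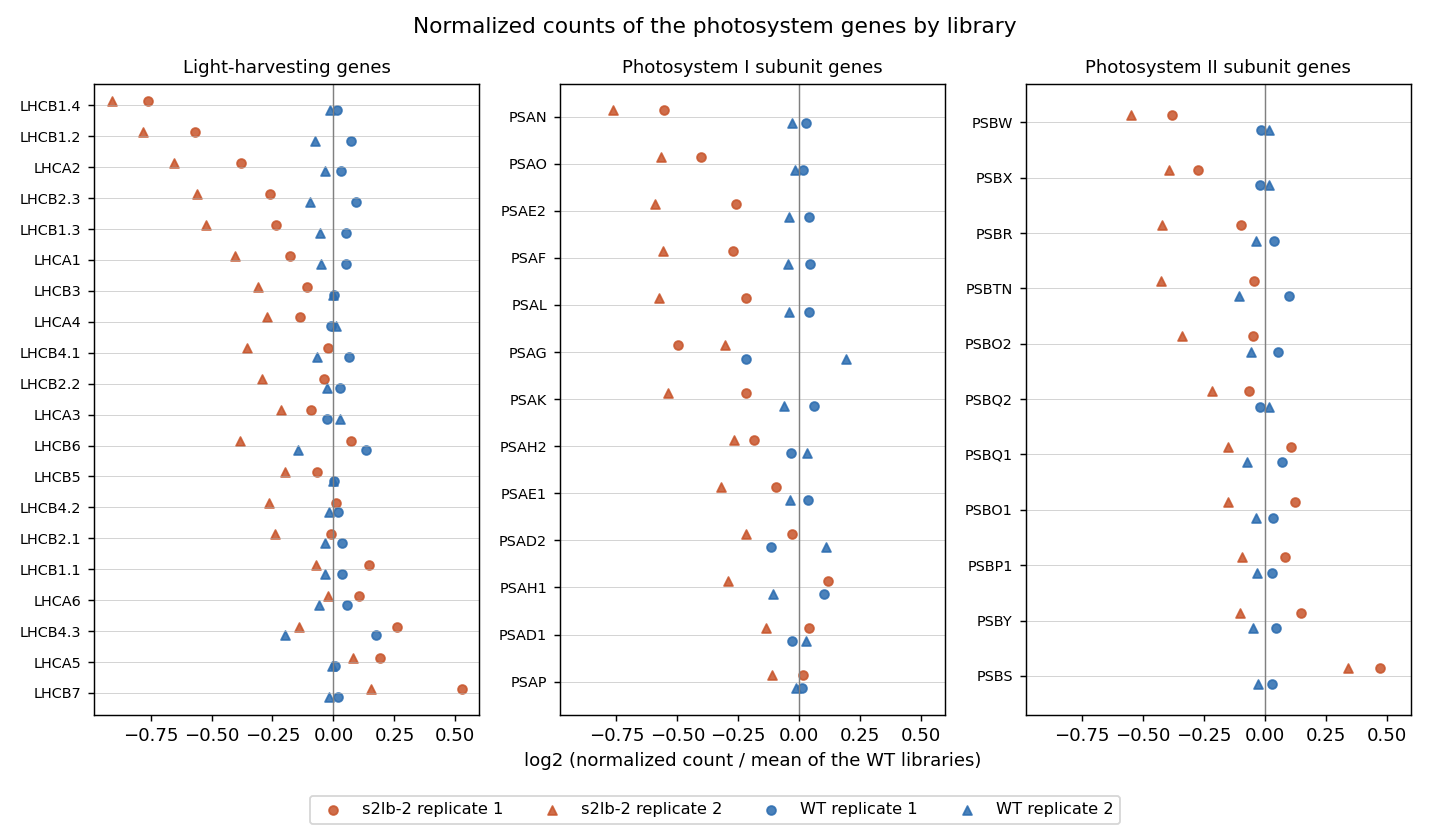
Normalized count of each tested photosystem gene in each library, as log2 of its ratio to the mean of both WT libraries, with *s2lb-2* in orange and WT in blue (circles, replicate 1; triangles, replicate 2). The *s2lb-2* points of *LHCB1.4*, *LHCB1.2* and *PSAN* stand farthest to the left of WT, those of *PSBS* and *LHCB7* to the right, and replicate 2 of *s2lb-2* lies left of replicate 1 for 43 of 44 genes.

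The 2 *s2lb-2* libraries were not alike. Replicate 2 had the lower normalized count for 43 of the 44 genes, by a median of 14.4%, and *PSAG* was the exception. In WT, replicate 2 was lower for 35 genes. Without *s2lb-2* replicate 2 the median log2 fold change of the 44 genes was -0.066, and without replicate 1 it was -0.29. The genes of photosystem I had a median of -0.22 without replicate 2 and -0.32 without replicate 1, whereas those of photosystem II had -0.041 and -0.22, and the light-harvesting genes -0.054 and -0.28. The differences of *LHCB1.4*, *LHCB1.2*, *PSAN*, *PSAO*, *LHCA2* and *PSBW* kept values between -0.91 and -0.38 in both cases.

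*LHCB1* genes encode the most abundant protein of the main antenna trimer. *LHCB1.1*, *LHCB1.2* and *LHCB1.3* lie next to each other on chromosome 1 of TAIR10.1 (10474656 to 10475969, 10472280 to 10473502, and 10477885 to 10479114), with *LHCB1.3* on the plus strand and the others on the minus strand. Their coding sequences are 804 bases long and 95.65% to 96.39% identical, and differ at 47 positions. A stretch of 60 bases (bases 25 to 84 of the coding sequence, on the strand of the gene) shows how 50-base reads can be told apart, with the 8 positions that differ among the 3 copies in capitals.
*LHCB1.1* (chr1:10475809-10475868, minus strand): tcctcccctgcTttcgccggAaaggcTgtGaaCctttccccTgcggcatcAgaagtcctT
*LHCB1.2* (chr1:10473163-10473222, minus strand): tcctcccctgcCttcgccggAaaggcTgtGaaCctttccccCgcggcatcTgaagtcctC
*LHCB1.3* (chr1:10478095-10478154, plus strand): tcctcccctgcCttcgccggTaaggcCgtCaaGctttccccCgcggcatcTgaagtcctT
The longest run without a difference was 62 bases, longer than a read, so that some reads of these genes have no single origin. Of their exon windows, 79.5% in *LHCB1.1*, 89.4% in *LHCB1.2* and 73.8% in *LHCB1.3* were countable.

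*LHCB1.2* (AT1G29910) had normalized counts of 214521 and 185281 in *s2lb-2*, against 334280 and 302538 in WT. Both *s2lb-2* libraries lay well below WT, with a log2 fold change of -0.67 (SE 0.13). *LHCB1.3* (AT1G29930) had 543835 and 445624 in *s2lb-2*, against 665121 and 616672 in WT, with a log2 fold change of -0.38 (SE 0.16) and no overlap. *LHCB1.1* (AT1G29920), the neighbour that lies between them, had 317644 and 272675 in *s2lb-2*, against 293405 and 279988 in WT. Its WT values lay within the range of the *s2lb-2* values, and its log2 fold change was 0.04 (SE 0.13). The tandem copies thus had unlike differences. Ratios within a library do not depend on scaling between libraries, but they come from the same counts and are no separate evidence. The ratio of *LHCB1.2* to *LHCB1.1* was 0.675 and 0.679 in *s2lb-2*, against 1.14 and 1.08 in WT. The ratio of *LHCB1.3* to *LHCB1.1* was 1.71 and 1.63 in *s2lb-2*, against 2.267 and 2.202 in WT.

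*LHCB1.4* and *LHCB1.5* form a further pair, on chromosome 2. *LHCB1.4* (AT2G34430, 14524607 to 14525918, plus strand) had 98409 and 88764 normalized counts in *s2lb-2*, against 168407 and 165225 in WT. Its log2 fold change of -0.84 (SE 0.10) was the lowest of the 44 genes. Its ratio to *LHCB1.1* was 0.310 and 0.326 in *s2lb-2*, against 0.574 and 0.590 in WT. *LHCB1.5* (AT2G34420, 14522524 to 14523568, minus strand) was listed at 0 in all 4 libraries. All of its exon bases overlap exons of an annotated noncoding gene on the other strand, none of its windows was countable, and its level was therefore not measured. The summed *LHCB1* genes took 3.10% and 2.80% of reads in *s2lb-2*, against 3.96% and 3.76% in WT.

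**Figure D2:**
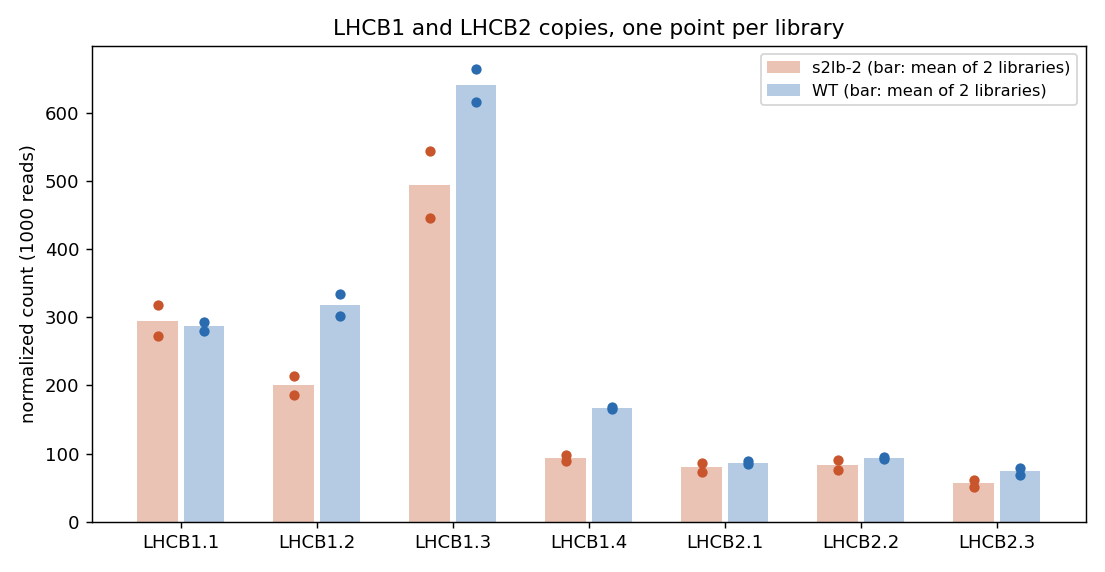
Normalized counts (in units of 1000 reads) of the measured *LHCB1* genes and of the *LHCB2* genes, with 1 point per library and bars for the mean of 2 libraries, *s2lb-2* in orange and WT in blue. *LHCB1.1* has 317644 and 272675 in *s2lb-2* and 293405 and 279988 in WT, whereas the points of *LHCB1.2*, *LHCB1.3*, *LHCB1.4*, *LHCB2.2* and *LHCB2.3* do not overlap between genotypes.

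*LHCB2* encodes another subunit of the trimers, a substrate of the STN7 kinase in state transitions. *LHCB2.1* (AT2G05100) had 85927 and 73382 normalized counts in *s2lb-2*, against 88810 and 84483 in WT, and the groups overlapped (log2 fold change -0.12, SE 0.11). *LHCB2.2* (AT2G05070) had 90694 and 75956 in *s2lb-2*, against 94850 and 91523 in WT, without overlap but with replicate 1 of *s2lb-2* less than 1000 counts under WT (log2 fold change -0.17, SE 0.12). *LHCB2.3* (AT3G27690) stood lower, with 61861 and 50230 in *s2lb-2*, against 78848 and 69196 in WT (log2 fold change -0.41, SE 0.14). The ratio of *LHCB2.3* to *LHCB2.1* was 0.720 and 0.684 in *s2lb-2*, against 0.888 and 0.819 in WT. That of *LHCB2.2* to *LHCB2.1* was apart by a narrow margin, with 1.055 and 1.035 in *s2lb-2*, against 1.068 and 1.083 in WT. The countable share of *LHCB2.3* was 56.5%, against 76.5% for *LHCB2.1* and 70.5% for *LHCB2.2*.

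*LHCB3* (AT5G54270), for a subunit found in part of the trimers, had 273511 and 237893 normalized counts in *s2lb-2*, against 294742 and 294479 in WT (log2 fold change -0.21, SE 0.13). The groups did not overlap, and the *s2lb-2* libraries differed more from each other than replicate 1 did from WT. *LHCB4.1* (AT5G01530), which encodes the linker protein CP29, had 199156 and 158506 in *s2lb-2*, against 211844 and 193210 in WT (log2 fold change -0.19, SE 0.15). *LHCB4.2* (AT3G08940) had 109904 and 90608 in *s2lb-2*, against 110238 and 107688 in WT (log2 fold change -0.13, SE 0.12). *LHCB4.3* (AT2G40100), a rarely expressed copy, had 2609 and 1975 in *s2lb-2*, against 2454 and 1898 in WT (log2 fold change 0.07, SE 0.18). All 3 *LHCB4* genes overlapped between genotypes. *LHCB5* and *LHCB6*, for the linker proteins CP26 and CP24, had log2 fold changes of -0.13 and -0.15. *LHCB7* (AT1G76570) had 727 and 563 in *s2lb-2*, against 511 and 499 in WT (log2 fold change 0.34, SE 0.15), and both *s2lb-2* libraries lay above WT.

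Among the antenna genes of photosystem I, *LHCA2* (AT3G61470) showed the lowest values relative to WT. It had 112629 and 92943 normalized counts in *s2lb-2*, against 149726 and 143030 in WT (log2 fold change -0.52, SE 0.13). LHCA2 pairs with LHCA3 in the antenna of photosystem I, and LHCA1 with LHCA4. *LHCA1*, *LHCA4* and *LHCA3* had log2 fold changes of -0.29, -0.21 and -0.16, all without overlap of the groups. The minor genes *LHCA5* and *LHCA6*, whose proteins link photosystem I to the NDH complex, had 0.14 and 0.04. *LHCA5* was higher in both *s2lb-2* libraries (8190 and 7584 in *s2lb-2*, against 7203 and 7137 in WT), and *LHCA6* overlapped.

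All 13 genes listed under photosystem I, *PSAP* (*CURT1B*) included, had log2 fold changes below 0 (11929 of all 23723 tested genes did). They ranged from -0.66 to -0.05, with a median of -0.38. Both *s2lb-2* libraries lay below WT for 9 of them (24.7% of all tested genes). *PSAN* (AT5G64040), for a lumenal subunit at the plastocyanin side, had 42175 and 36503 normalized counts in *s2lb-2*, against 63155 and 60711 in WT (log2 fold change -0.66, SE 0.10). *PSAO* (AT1G08380), for a small subunit on the side where the main antenna docks in state transitions, had 75276 and 67173 in *s2lb-2*, against 100592 and 98466 in WT (log2 fold change -0.49, SE 0.10). For both genes the gap between genotypes was wider than the gap between libraries of a genotype. *PSAN* lies on chromosome 5 (25628521 to 25629708), as do *S2Lb* (26466172 to 26468484) and *PSBO1* (26568572 to 26570461). *LHCB3* (22038165 to 22039568) and *LHCB4.1* (208866 to 210548) lie farther from *S2Lb* on this chromosome. Nossen sequence may remain near the insertion in *s2lb-2*, and its part in the values of these members on chromosome 5 was not tested.

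*PSAF* (AT1G31330), which binds plastocyanin, had 131694 and 107780 normalized counts in *s2lb-2*, against 163905 and 154016 in WT (log2 fold change -0.42, SE 0.13). *PSAL* (AT4G12800), part of the contact with the main antenna, had 141028 and 110316 in *s2lb-2*, against 168963 and 159446 in WT (log2 fold change -0.40, SE 0.15). The groups of both genes did not overlap. *PSAK* and *PSAG*, which encode related subunits at the edge of the complex, had log2 fold changes of -0.38 and -0.39 without overlap. *PSAG* had a countable share of 34.5% and was the gene whose replicate 2 exceeded replicate 1 in both genotypes (17414 and 19911 in *s2lb-2*, against 21116 and 28069 in WT).

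The stromal subunits PSAD and PSAE form the docking site of ferredoxin and are encoded by gene pairs. *PSAD1* (AT4G02770) had 83147 and 73649 normalized counts in *s2lb-2*, against 79392 and 82435 in WT (log2 fold change -0.05, SE 0.10). *PSAD2* (AT1G03130) had 36689 and 32193 in *s2lb-2*, against 34494 and 40341 in WT (log2 fold change -0.12, SE 0.12). Both *PSAD* genes overlapped between genotypes. *PSAE1* (AT4G28750) had 36974 and 31692 in *s2lb-2*, against 40580 and 38501 in WT (log2 fold change -0.21, SE 0.11). *PSAE2* (AT2G20260) had 12681 and 10074 in *s2lb-2*, against 15594 and 14725 in WT (log2 fold change -0.42, SE 0.12). Neither *PSAE* gene overlapped, and the ratio of *PSAE2* to *PSAE1* was 0.343 and 0.318 in *s2lb-2*, against 0.384 and 0.382 in WT.

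PSAH contacts the main antenna during state transitions. *PSAH1* (AT3G16140) had 33312 and 25080 normalized counts in *s2lb-2*, against 32955 and 28493 in WT, with overlap (log2 fold change -0.08, SE 0.16). *PSAH2* (AT1G52230) had 33117 and 31357 in *s2lb-2*, against 36814 and 38602 in WT, without overlap (log2 fold change -0.23, SE 0.08). Their countable shares were 35.6% and 68.6%. The thylakoid protein listed as *PSAP* (AT2G46820), which the annotation also names *CURT1B* and which shapes grana margins, had a log2 fold change of -0.05 with overlap.

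**Figure D3:**
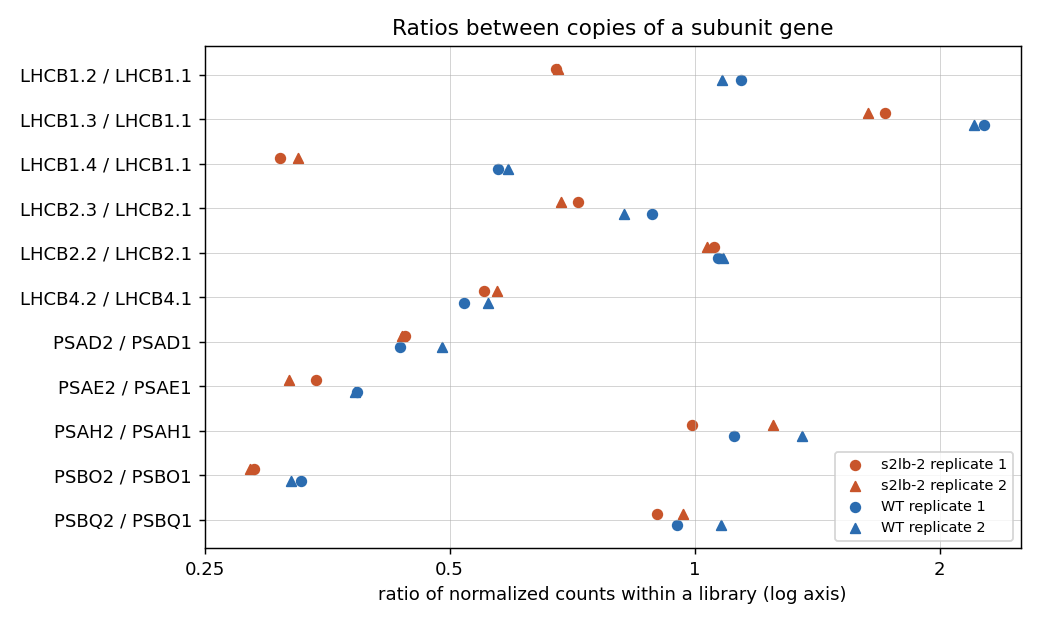
Ratio of the normalized counts of 2 copies of a subunit gene within each library (log axis), *s2lb-2* in orange and WT in blue (circles, replicate 1; triangles, replicate 2). The ratios of *LHCB1.2* and *LHCB1.4* to *LHCB1.1* are farthest apart between genotypes (0.675 and 0.679 in *s2lb-2*, against 1.14 and 1.08 in WT, for *LHCB1.2*), whereas those of *LHCB4.2*, *PSAD2*, *PSAH2* and *PSBQ2* overlap.

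Among the 11 genes of photosystem II, 9 had log2 fold changes below 0, with a median of -0.14. Both *s2lb-2* libraries lay below WT for 4 genes (24.7% of all tested genes) and above WT for 1 (24.8% of all tested genes). *PSBW*, *PSBX* and *PSBR*, all small membrane proteins, stood lowest. *PSBW* (AT2G30570), which stabilizes the supercomplex with the antenna, had 73217 and 65179 normalized counts in *s2lb-2*, against 94362 and 96427 in WT (log2 fold change -0.47, SE 0.10). *PSBX* (AT2G06520) had 62751 and 57651 in *s2lb-2*, against 74815 and 76792 in WT (log2 fold change -0.33, SE 0.09). *PSBR* (AT1G79040), which helps to attach the oxygen-evolving proteins, had 123435 and 98539 in *s2lb-2*, against 135513 and 128583 in WT (log2 fold change -0.26, SE 0.14). *PSBY* and *PSBTN* overlapped, with log2 fold changes of 0.02 and -0.23.

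The genes of the extrinsic proteins of the oxygen-evolving complex had log2 fold changes between -0.19 and -0.0053. *PSBO1* (AT5G66570), for the manganese-stabilizing protein, had 268801 and 222061 normalized counts in *s2lb-2*, against 252712 and 240996 in WT (log2 fold change -0.01, SE 0.14). *PSBO2* (AT3G50820) had 77278 and 63137 in *s2lb-2*, against 82883 and 76911 in WT (log2 fold change -0.19, SE 0.13). The WT values lay inside the range of *s2lb-2* for *PSBO1*, and *PSBO2* overlapped as well. The ratio of *PSBO2* to *PSBO1* did not overlap, with 0.287 and 0.284 in *s2lb-2*, against 0.328 and 0.319 in WT.

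*PSBP1* (AT1G06680) had 209780 and 185635 normalized counts in *s2lb-2*, against 202420 and 193806 in WT (log2 fold change -0.0053, SE 0.12). *PSBQ1* (AT4G21280) had 73942 and 61874 in *s2lb-2*, against 72041 and 65368 in WT (log2 fold change -0.02, SE 0.12). Its copy *PSBQ2* (AT4G05180) had 66554 and 59874 in *s2lb-2*, against 68630 and 70448 in WT, without overlap (log2 fold change -0.14, SE 0.10).

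*PSBS* (AT1G44575, also *NPQ4*) encodes the sensor of lumen acidity that switches on the dissipation of excess light as heat. It had 109265 and 99792 normalized counts in *s2lb-2*, against 80296 and 77220 in WT. Both *s2lb-2* libraries lay above WT, with the highest log2 fold change of the 44 genes (0.41, SE 0.10). Without either *s2lb-2* library it kept values of 0.34 and 0.47.

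The 250 bases upstream of each annotated gene start (RefSeq, TAIR10.1) were searched on both strands for 5 sequence motifs of light-regulated and clock-regulated genes, which the choice of members had not used. All 45 genes matched the annotation. No motif contains another, and the windows can reach into exons of neighbours. The CCAAT box (CCAAT) occurred in 29 of 45 windows (64.4%), and in 46.0% of 27443 windows of all protein-coding genes. It was found upstream of 19 of 21 light-harvesting genes, 8 of 13 genes of photosystem I and 2 of 11 genes of photosystem II. The G-box (CACGTG) occurred in 10 of 45 windows (22.2%), and in 6.49% of all windows. The I-box (GATAAG) occurred in 9 windows (20.0%, and 12.3% of all). The CCA1-binding site (AAAAATCT) occurred in 5 windows (11.1%, and 6.69% of all), and the evening element (AAAATATCT) in 1 (2.22%, and 2.36% of all). These are counts of letters, and whether a factor binds there was not measured.

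The windows of the *LHCB1* genes that were measured, and of *PSBS*, are shown to compare close copies whose log2 fold changes ranged from -0.84 to 0.04 with the gene that had the highest log2 fold change. Capitals mark CCAAT boxes (CCAAT, or ATTGG on the other strand) and CCA1-binding sites. No base of these windows lies in an exon of another gene.
*LHCB1.1* (chr1:10475970-10476219, minus strand): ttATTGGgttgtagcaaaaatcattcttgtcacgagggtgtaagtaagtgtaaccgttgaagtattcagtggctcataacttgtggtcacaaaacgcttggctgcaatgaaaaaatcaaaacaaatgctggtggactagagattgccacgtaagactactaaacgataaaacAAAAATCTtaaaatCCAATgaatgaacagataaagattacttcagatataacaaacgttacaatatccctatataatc
*LHCB1.2* (chr1:10473503-10473752, minus strand): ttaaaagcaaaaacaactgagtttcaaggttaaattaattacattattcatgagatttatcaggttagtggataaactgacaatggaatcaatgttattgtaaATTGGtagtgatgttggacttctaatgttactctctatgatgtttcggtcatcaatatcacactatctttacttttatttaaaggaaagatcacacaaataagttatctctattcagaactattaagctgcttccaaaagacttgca
*LHCB1.3* (chr1:10477635-10477884, plus strand): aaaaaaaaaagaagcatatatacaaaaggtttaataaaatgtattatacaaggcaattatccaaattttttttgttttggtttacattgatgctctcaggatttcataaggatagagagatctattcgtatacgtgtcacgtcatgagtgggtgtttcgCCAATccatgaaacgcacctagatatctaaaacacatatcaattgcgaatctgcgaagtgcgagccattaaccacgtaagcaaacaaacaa
*LHCB1.4* (chr2:14524357-14524606, plus strand): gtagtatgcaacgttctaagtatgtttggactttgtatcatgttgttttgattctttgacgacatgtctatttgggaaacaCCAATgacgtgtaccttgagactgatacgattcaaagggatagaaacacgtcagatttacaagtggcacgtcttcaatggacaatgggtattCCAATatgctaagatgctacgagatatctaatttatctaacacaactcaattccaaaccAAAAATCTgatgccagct
*PSBS* (chr1:16869971-16870220, plus strand): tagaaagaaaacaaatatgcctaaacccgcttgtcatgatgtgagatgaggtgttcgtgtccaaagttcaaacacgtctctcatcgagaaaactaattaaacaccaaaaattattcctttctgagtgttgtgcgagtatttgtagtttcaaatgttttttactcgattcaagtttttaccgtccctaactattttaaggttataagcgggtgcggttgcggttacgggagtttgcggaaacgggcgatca
*LHCB1.1* and *LHCB1.4* each had 2 CCAAT boxes and 1 CCA1-binding site, and their log2 fold changes were 0.04 and -0.84. A part of the motifs in these differences was not tested. *LHCB1.2* and *LHCB1.3* each had 1 CCAAT box, and the window of *PSBS* held none of the 5 motifs. The annotated starts of *LHCB1.1*, *LHCB1.2* and *LHCB1.3* lie at unlike distances from their coding sequences. Their windows may therefore not cover matching positions.

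Other genes of photosynthesis were set beside the photosystem genes, from lists drawn up by function. Of 15 genes of carbon fixation, 13 had log2 fold changes above 0 and 2 below, with a median of 0.19, and 9 were higher in both *s2lb-2* libraries (24.8% of all tested genes). *RBCS2B*, a small subunit gene of Rubisco, had 229258 and 200331 normalized counts in *s2lb-2*, against 110571 and 113115 in WT (log2 fold change 0.94, SE 0.11, adjusted p = 0.0324 by limma). It was the only gene of the list called by DESeq2 on the recovered reads. Its ratio to the neighbouring *RBCS3B* was 0.762 and 0.744 in *s2lb-2*, against 0.383 and 0.393 in WT. These copies are near-identical in part, and reads that they share were not examined. In sum, the list took 8.00% and 7.69% of reads in *s2lb-2*, against 7.21% and 7.13% in WT, the opposite order to the photosystem genes. Its summed normalized counts were 3036370 and 2728210 in *s2lb-2*, against 2661380 and 2590100 in WT. Without *RBCS2B* these sums overlapped between genotypes, whereas the shares of reads stayed apart. The difference between the lists was not tested.

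The 14 nuclear genes of electron transport and ATP synthase were split evenly, 7 below and 7 above 0, with a median of 0.01. The ferredoxin gene *FD2* had 70964 and 55966 normalized counts in *s2lb-2*, against 94795 and 84133 in WT (log2 fold change -0.50). *PETM*, for a small subunit of the cytochrome b6f complex, had 17964 and 15220 in *s2lb-2*, against 21123 and 20627 in WT (log2 fold change -0.34). Of 16 genes for assembly and import of photosystem proteins, 7 were below and 9 above 0 (median 0.04). *CPSRP43*, which carries LHC proteins through the stroma, had 19048 and 16301 in *s2lb-2*, against 13772 and 12761 in WT (log2 fold change 0.41). *LQY1* had 9152 and 7793 in *s2lb-2*, against 11138 and 9888 in WT (log2 fold change -0.31). The kinases and the phosphatase of the antenna and of photosystem II had 0.01 (*STN7*), 0.22 (*STN8*) and -0.03 (*TAP38*). Limma called 0 of these 33 genes at an adjusted p under 0.05 (8 at an unadjusted p under 0.05, where 17.4% of all tested genes passed), and DESeq2 called 0 at 0.01.

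Of 16 genes of chlorophyll synthesis, 10 were below and 6 above 0 (median -0.04), and limma and DESeq2 called 0 (6 at an unadjusted p under 0.05 by limma, where 17.4% of all tested genes passed). *PORA* and *PORB*, which encode light-dependent protochlorophyllide reductases of greening seedlings, had log2 fold changes of -1.48 and -0.56. *PORC*, of the same enzyme family, went the other way without overlap (log2 fold change 0.37). It had 18408 and 16304 normalized counts in *s2lb-2*, against 13307 and 13485 in WT. *PORB* had 31200 and 32803 normalized counts in *s2lb-2*, against 40676 and 54495 in WT. *PORA* was low in all libraries (35.5 and 25.9 in *s2lb-2*, against 79.8 and 93.8 in WT). Of 7 genes for LHC-like proteins 3 were below and 4 above 0, and the stress-induced *ELIP1* had 2985 and 2529 in *s2lb-2*, against 2010 and 1103 in WT. Of 12 regulators of photosynthetic genes 7 were below and 5 above 0 (median -0.05). Of genes named here after their values were seen, *GLK1* and *GLK2*, activators of antenna genes, had log2 fold changes of 0.30 and 0.03, whereas *GNC*, a GATA factor that promotes greening, and *PIF4*, a phytochrome-interacting factor, had -0.51 and -0.51 without overlap. The clock gene *CCA1* had 2220 and 1535 in *s2lb-2*, against 1344 and 998 in WT (log2 fold change 0.67, SE 0.22), and passed neither limma nor DESeq2. Its replicate 1 lay above replicate 2 in both genotypes, and other times of day were not sampled.

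**Figure D4:**
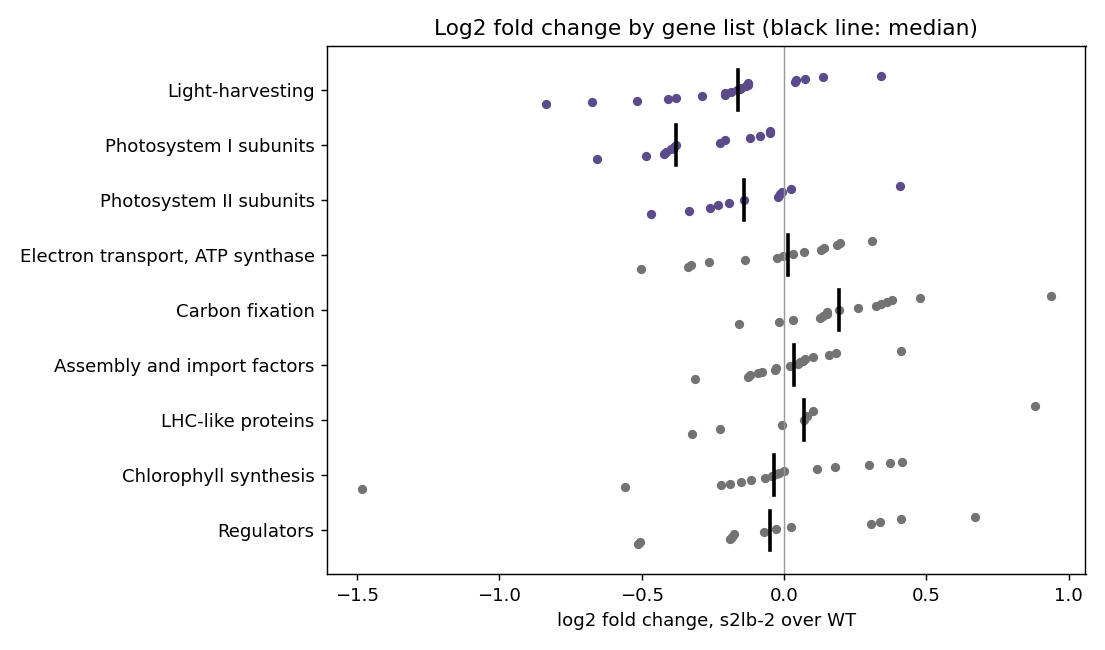
Log2 fold change of *s2lb-2* over WT for each gene (points) of the photosystem families (purple) and of other photosynthesis lists (grey), with the median of each list as a black line. The medians lie at -0.38 for photosystem I and at -0.16 and -0.14 for the antenna and photosystem II, and at 0.19 for carbon fixation.

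Counts of markers of other tissues and of plastid genes differed in part between the samples. The 12 root markers summed to 76150 and 75313 normalized counts in *s2lb-2*, against 98299 and 85292 in WT, with 4 markers below and 8 above 0. Most of this sum was *PYK10* (61751 and 59728 in *s2lb-2*, against 86088 and 76205 in WT), a glucosidase gene, and the other 11 markers summed to 14400 and 15585 in *s2lb-2*, against 12211 and 9087 in WT. *IRT1*, the iron transporter of the root epidermis, carried the separation of this second sum. Without *IRT1* the sums of the remaining markers overlapped between genotypes. *IRT1* was called by limma (5437 and 6183 in *s2lb-2*, against 1491 and 1634 in WT, log2 fold change 1.89, adjusted p = 0.0078). The 3 seed storage markers summed to 170 and 29.0 in *s2lb-2*, against 417 and 36.2 in WT, so that they were higher in replicate 1 of both genotypes. *CRA1*, for a storage globulin, had 112 and 19.7 in *s2lb-2*, against 301 and 16.7 in WT. Reads on 7 plastid genes for photosystem cores summed to 5901 and 15854 in *s2lb-2*, against 6758 and 11593 in WT, and were higher in replicate 2 of both. The libraries were made from polyA RNA. Organelle genes took 0.0659% and 0.166% of reads in *s2lb-2*, against 0.0768% and 0.123% in WT. How far such reads follow plastid RNA levels was not tested. The part of the root, seed and plastid differences in the values of the photosystem genes was not tested either.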

How the data were processed

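The data were polyA RNA-seq of whole seedlings, 2 libraries of *s2lb-2* and 2 of WT. The authors trimmed adapters, mapped 50-bp single reads on TAIR10 with STAR 2.5.4b, counted reads per Araport11 gene and divided by DESeq2 size factors. These normalized counts, for 37336 genes, are the deposited signal. A deposited table of the authors' own comparison (log2 fold changes and p-values) was not used. The labels and the methods name different RNA extraction kits.

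Dividing by the smallest step of each library gave whole reads for 100% of values (tolerance 1e-06). Limma 3.58.1 (R 4.3.3, trend) was fitted to log2(normalized count + 1) of genes whose mean reached 1, with genotype as the only term and Benjamini-Hochberg adjustment over all 23723 genes. This fold change understates that of low genes. DESeq2 1.42.0 and edgeR 4.0.16 (quasi-likelihood) were run on the recovered reads, as were other filters, pseudocounts, scalings and fits without each library. The fits were tested on simulated data. The precision is set by 2 libraries per genotype, with 34325097 to 39114300 reads on genes each.

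TPM used exon lengths from TAIR10.1 (RefSeq), matched for 37051 genes (99.24%); the other 285 had no gene model there. Countable windows, coding identity and motifs were computed from the same build. Reads shared by near-identical copies or overlapping genes limit single values. The members and lists were chosen with earlier results of these data known. Values per library were given for genes with close copies, for the 3 highest and the 3 most different genes of each family, and for genes called by a fit. Of other lists, called genes or else the most different ones were named, in part by their log2 fold change alone.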

Additional observations from a re-analysis of the deposited data

How the results depend on the processing

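The number of genes past an adjusted p of 0.01 was 29 by limma, 704 by DESeq2 and 663 with the replicate block, and 379 passed 0.05 by limma. It was 27 to 42 under TMM factors, edgeR, other filters, a pseudocount of 0.5, and centring by exon length or by mean level (the last chosen after seeing the data). Of the photosystem genes 0 passed in these fits, 6 by DESeq2, 2 with the replicate block (*LHCB1.4* and *PSAN*), and 1 by limma at 0.05. With the replicate block *RBCS2B*, *ELIP1* and *CCA1* passed too. Replicate numbers are not stated to mark a pairing, and same-numbered libraries had deviations correlated at 0.178 (0.407 for genes with a mean above 50).

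The median log2 fold change of the photosystem genes was -0.15 to -0.25 in all fits with 4 libraries, and -0.14 over the 29 genes with a countable share of at least 90% (chosen after seeing the data). It was -0.29 to -0.066 with a library left out, and -0.066 was the value without *s2lb-2* replicate 2. With 1 library left out, 0 genes in all and 0 photosystem genes passed 0.01, and the lone library is then assumed to vary like the others. *S2Lb* kept -4.43 to -4.16 without passing. Of the 44 genes, 12 changed sign when some library was left out, and 4 under another fit. No test of single outlying libraries exists with 2 per genotype.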
